A study of Mus musculus with 20 samples.

Results

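The genes described here are the ligands, receptors, antagonists and intracellular mediators of the Wnt pathway, 54 of the 78258 genes in the count table. They were chosen by gene symbol: 19 Wnt ligands, 12 receptors (the 10 Frizzled genes with Lrp5 and Lrp6), 8 secreted antagonists of the Dickkopf and Sfrp families, 8 cytoplasmic mediators and 7 nuclear mediators. The list was drawn up with earlier results of these data known, and the responses to injury were among them. The difference of Pygo1 between genotypes in contralateral ganglia and the opposite injury responses of Ankrd6 were among those results, so both are given as descriptions, with no test, and are left out of the counts of those comparisons.

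Wnt ligands are secreted, lipid-modified proteins that bind Frizzled receptors, and in the β-catenin branch also the co-receptors Lrp5 and Lrp6. Without ligand, a destruction complex built on Axin and Apc marks β-catenin for degradation, and with ligand the Dishevelled proteins halt that complex, so that β-catenin reaches the nucleus and works with TCF and LEF proteins and the co-activators Bcl9 and Pygopus. Other branches act through Frizzled and Dishevelled without β-catenin and are known for guiding axons and orienting cells. In sensory ganglia the pathway is best known for its part in neural crest and sensory neuron development.

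Lumbar dorsal root ganglia, which hold the cell bodies of sensory neurons, were taken from 10 male mice for RNA sequencing. Knockout mice (cKO) carried floxed Ahr alleles (Ahr fl/fl) with Thy1CRE-ERT2/EYFP, a tamoxifen-inducible Cre recombinase and a yellow fluorescent protein driven by the Thy1 promoter, whereas controls carried Ahr f/f or f/+. Ahr encodes the aryl hydrocarbon receptor, a ligand-activated transcription factor. Mice of both genotypes were given tamoxifen at 17 weeks (100 mg/kg a day over 5 days), and transection of the sciatic nerve followed after a further 4 weeks. Ganglia L4 to L6 were collected 1 day after this lesion, and each mouse gave 1 ipsilateral and 1 contralateral library, so the contralateral ganglia also came from mice with a lesion. Each of the 4 groups had 5 libraries. Thy1 drives the Cre mainly in neurons, and the whole ganglion, glia and connective tissue included, was sequenced.

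Sequencing gave 76.2 to 118.5 M counts per library. Ahr itself was measured at 24.2 ± 2.10 CPM (SD, n = 5) in control contralateral ganglia and at 20.4 ± 0.536 CPM in cKO contralateral ganglia, and at 34.4 ± 2.86 and 31.9 ± 2.94 CPM in ipsilateral ganglia. CPM are counts per M counts of the library after TMM scaling. The differences of Ahr between genotypes were not called (log2 fold change -0.25 ± 0.066, SE, adjusted p = 0.103 contralaterally, and -0.11 ± 0.066, adjusted p = 0.99996 ipsilaterally). Markers of sensory neurons were abundant in every library, at 14469 to 16372 CPM summed over 16 genes in control contralateral ganglia, and no marker on any cell type list was at 0 in any library.

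In 3 libraries the summed fibroblast markers stood apart. The 8 fibroblast markers (Col1a1, Col1a2, Col3a1, Dcn, Lum, Pdgfra, Dpt and Col6a1) summed to 2406, 2131 and 1828 CPM in the contralateral ganglia of cKO mice H64, H95 and H100, against 826 to 1417 CPM in the other 7 contralateral libraries. Taken one by one, 5 of the 8 (Col1a2, Col3a1, Col6a1, Dcn and Pdgfra) were higher in all 3 than in all 7 others. Muscle markers were also high, at 1691 CPM, in the contralateral library of H100. All 3 of these libraries lay above all 7 other contralateral libraries in 16 of the 48 tested Wnt pathway genes, 33.3%, against 7.92% of all 28564 tested genes, and below them in 2, Ankrd6 and Dvl3, 4.17% against 10.6%. Receptors made up the largest share: 8 of 12 (Fzd1, Fzd2, Fzd4, Fzd6, Fzd7, Fzd10, Lrp5 and Lrp6). The other 8 were the ligands Wnt6, Wnt10b, Wnt11 and Wnt16, the antagonist Sfrp4, and Pygo1, Tcf7l1 and Tcf7l2. Pygo1 and, among the 2 lower genes, Ankrd6 were listed for patterns that rest on these same libraries, so their place in these counts is not independent of the listing. Values without these libraries are given beside the results in which these genes are named, and the part that tissue composition had in them was not tested. In cKO mice only the contralateral libraries of H61 and H99 then remained. In that fit 23.2% of all tested genes were called for injury in cKO mice, against 31.3% with all libraries. A call lost there does not by itself show that a result rested on the libraries left out. In bulk ganglia, a change in the number of cells of a type and a change in RNA per cell cannot be told apart.

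**Figure D1:**
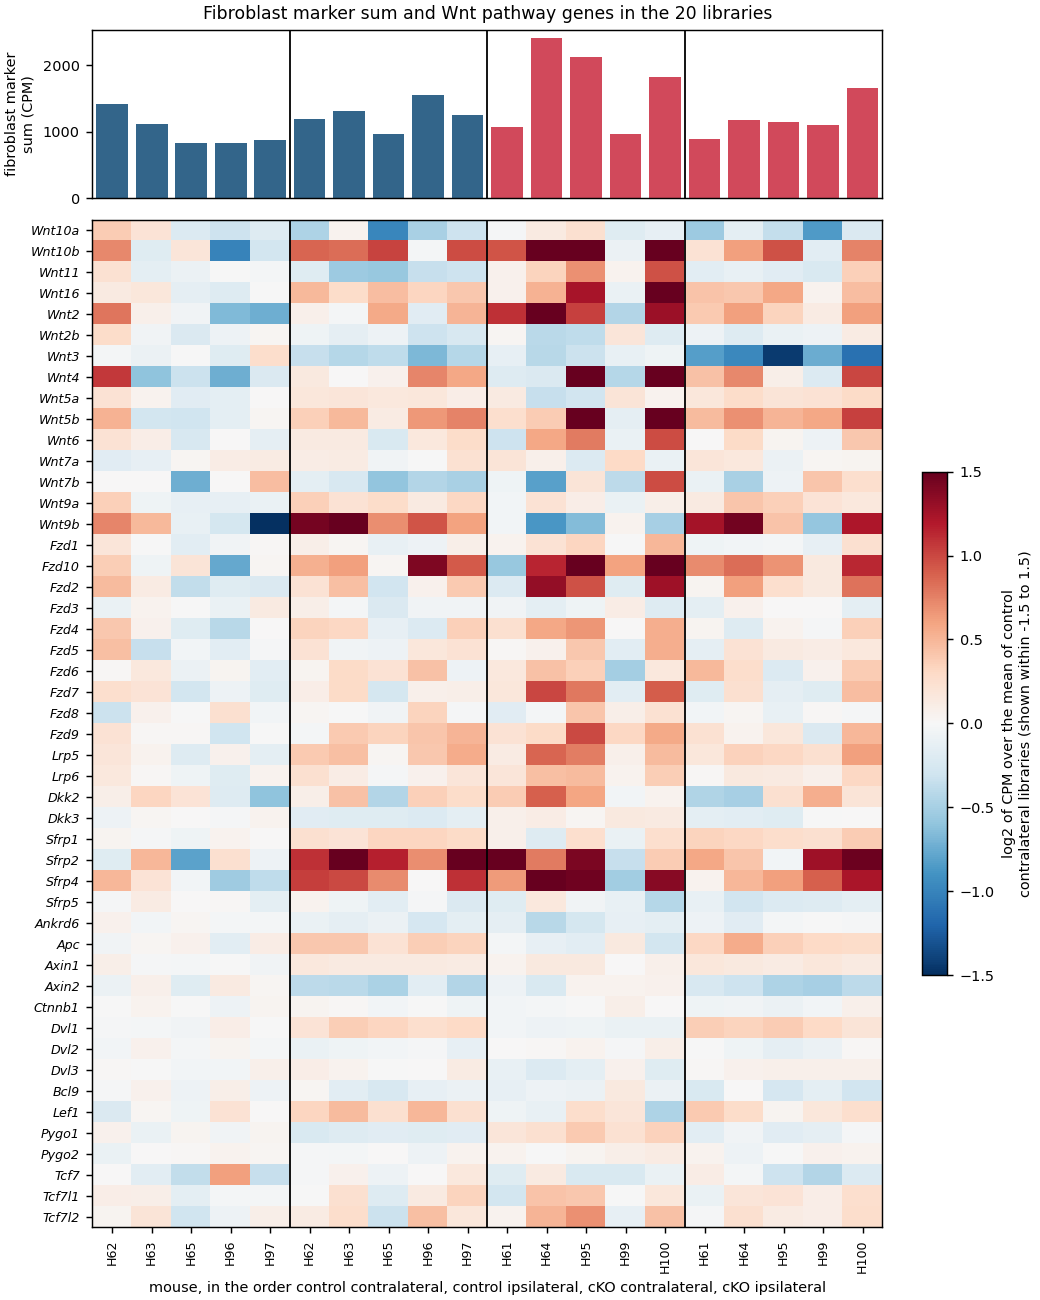
Upper panel: summed CPM of 8 fibroblast markers in each of the 20 libraries. Lower panel: log2 of the CPM of the 48 tested Wnt pathway genes over the mean of the 5 control contralateral libraries, shown within -1.5 to 1.5. The cKO contralateral libraries of H64, H95 and H100 have the 3 highest marker sums, 1828 to 2406 CPM, and are the highest contralateral libraries for 16 of the genes, Pygo1 among them.

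Levels were compared between genes as CPM per kilobase of merged exon in control contralateral ganglia. The most abundant transcript was Ctnnb1, which encodes β-catenin, at 82.1 ± 2.95 CPM per kilobase (SD, n = 5). It was followed by 2 secreted antagonists, Sfrp5 at 74.7 ± 5.08 and Dkk3 at 61.7 ± 2.06 CPM per kilobase. Apc came next at 19.2 ± 1.39, then Dvl1 at 14.0 ± 0.583, Sfrp1 at 12.7 ± 0.400, Pygo2 at 10.6 ± 0.423 and a further antagonist, Sfrp4, at 10.5 ± 3.08 CPM per kilobase. The intervals of mean ± SD overlapped for Ctnnb1 and Sfrp5, and that of Sfrp4 overlapped those of Pygo2, Sfrp1 and Dvl1, so these neighbours were not separated by their spread. The other 2 tested secreted antagonists lay far lower, Sfrp2 at 0.257 ± 0.0818 and Dkk2 at 0.174 ± 0.0414 CPM per kilobase.

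Among the ligands, Wnt6, Wnt2b, Wnt9a and Wnt5a were the most abundant per length, at 7.55 ± 0.942, 7.36 ± 0.958, 5.96 ± 0.929 and 3.73 ± 0.420 CPM per kilobase. The intervals of mean ± SD of Wnt6, Wnt2b and Wnt9a overlapped, so the order of these 3 was not separated by their spread. Wnt7a followed at 2.08 ± 0.189 CPM per kilobase, and the other 10 tested ligands were below 1 CPM per kilobase, down to Wnt9b at 0.0309 ± 0.0177. The leading receptors were Fzd1 at 7.47 ± 0.653, the co-receptor Lrp6 at 4.82 ± 0.417 and Fzd3, a receptor known for axon guidance, at 4.50 ± 0.326 CPM per kilobase. Fzd2 and Fzd7 were at 3.58 ± 0.884 and 3.57 ± 0.584 CPM per kilobase, and Fzd10 was the lowest receptor at 0.0828 ± 0.0220. Of the DNA-binding partners of β-catenin, Tcf7l1 was at 2.16 ± 0.145, Tcf7 at 1.11 ± 0.346, Tcf7l2 at 0.415 ± 0.0526 and Lef1 at 0.336 ± 0.0361 CPM per kilobase. The intervals of Lrp6, Fzd3 and Fzd2 overlapped one another, as did those within the pairs Fzd2 and Fzd7, Tcf7l2 and Lef1, and Sfrp2 and Dkk2.

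**Figure D2:**
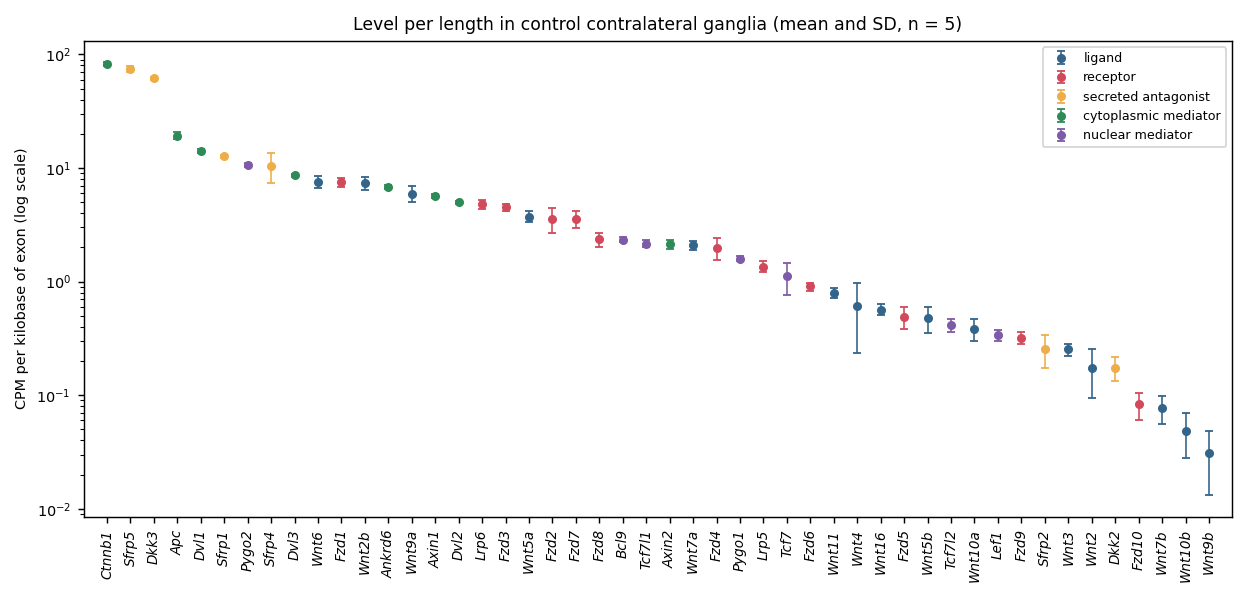
CPM per kilobase of merged exon in control contralateral ganglia (mean and SD, n = 5, log axis) for the 48 tested genes, coloured by role. Ctnnb1, Sfrp5 and Dkk3 lie above 50 CPM per kilobase, and the lowest ligands below 0.1.

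The filter on low counts left out 6 of the 54 genes: the ligands Wnt1, Wnt3a, Wnt8a and Wnt8b and the antagonists Dkk1 and Dkk4. Wnt3a had 137 counts over all 20 libraries, Wnt8b 97, Dkk1 82, Wnt1 35 and Wnt8a 8. Dkk4 had 0 counts in the 1847 M counts of the 20 libraries, which allows up to 3 counts, or 0.00162 CPM. The limit covers counting error only. Exons of some members overlap a gene on the other strand in GENCODE M21 (14.6% of the exon bases of Ctnnb1, 18.3% of Dvl2, 13.7% of Lef1, 17.8% of Fzd5, 16.1% of Sfrp2 and 8.80% of Wnt11). Because the strand setting of the counting was not given in the sources used here, reads of these genes and of their antisense partners cannot be told apart.

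Promoters are shown for the 5 genes with values given for every library by rule, since the targeted gene, Ahr, encodes a transcription factor with a known binding motif. Each is the most upstream start of its gene in RefSeq (GRCm38.p6), 250 bases before to 50 after the start, 5′ to 3′ on the strand of the gene, with motif matches in capitals. The windows are chr4:32950777-32951076 for Ankrd6 (ENSMUSG00000040183, minus strand), chr9:72925395-72925694 for Pygo1 (ENSMUSG00000034910, plus), chr1:59481897-59482196 for Fzd7 (ENSMUSG00000041075, plus), chr3:83766071-83766370 for Sfrp2 (ENSMUSG00000027996, plus) and chr7:98834862-98835161 for Wnt11 (ENSMUSG00000015957, plus). Each spans a RefSeq start. The Fzd7 window lies upstream of the gene as GENCODE M21 places it (starting at base 59482424).
Ankrd6: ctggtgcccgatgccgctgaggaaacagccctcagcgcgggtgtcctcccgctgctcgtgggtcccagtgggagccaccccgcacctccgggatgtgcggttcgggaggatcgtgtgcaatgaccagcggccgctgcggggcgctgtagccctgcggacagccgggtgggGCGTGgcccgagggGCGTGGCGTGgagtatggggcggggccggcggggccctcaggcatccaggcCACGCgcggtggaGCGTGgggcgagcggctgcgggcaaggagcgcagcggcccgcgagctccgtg
Pygo1: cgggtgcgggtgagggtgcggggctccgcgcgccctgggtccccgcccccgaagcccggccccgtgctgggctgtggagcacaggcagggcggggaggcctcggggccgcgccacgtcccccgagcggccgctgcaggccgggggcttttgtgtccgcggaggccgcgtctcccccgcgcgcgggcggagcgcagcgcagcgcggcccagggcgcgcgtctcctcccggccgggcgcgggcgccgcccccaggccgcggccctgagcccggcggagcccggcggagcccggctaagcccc
Fzd7: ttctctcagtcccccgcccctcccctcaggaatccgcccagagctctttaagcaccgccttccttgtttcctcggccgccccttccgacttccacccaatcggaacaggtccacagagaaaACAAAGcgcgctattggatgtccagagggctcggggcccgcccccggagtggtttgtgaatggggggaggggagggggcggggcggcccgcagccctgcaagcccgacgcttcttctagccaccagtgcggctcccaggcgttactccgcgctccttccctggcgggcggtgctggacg
Sfrp2: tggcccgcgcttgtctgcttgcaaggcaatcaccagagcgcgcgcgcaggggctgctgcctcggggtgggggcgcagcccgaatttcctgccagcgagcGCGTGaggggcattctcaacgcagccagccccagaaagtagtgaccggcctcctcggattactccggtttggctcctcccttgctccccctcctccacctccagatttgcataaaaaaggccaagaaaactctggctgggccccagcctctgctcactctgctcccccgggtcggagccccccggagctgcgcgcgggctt
Wnt11: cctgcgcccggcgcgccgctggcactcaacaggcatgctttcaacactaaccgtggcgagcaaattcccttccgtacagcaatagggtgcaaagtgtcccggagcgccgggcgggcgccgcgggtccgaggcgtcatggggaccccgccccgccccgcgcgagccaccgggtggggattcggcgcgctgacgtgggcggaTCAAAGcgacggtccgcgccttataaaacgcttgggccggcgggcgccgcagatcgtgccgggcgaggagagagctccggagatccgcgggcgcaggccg
The motifs searched on both strands were CTTTGA and CTTTGT (TCF/LEF), GCGTG (AhR) and TGANTCA (AP-1), and the TCF/LEF pair differ in the last letter, so they never match at the same position of a strand. The Ankrd6 window held 5 matches to GCGTG, of which an adjoining pair is printed as a single run of capitals, and the Sfrp2 window held 1. Fzd7 had 1 match to CTTTGT and Wnt11 had 1 to CTTTGA. None of the 4 motifs occurred in the Pygo1 window. RefSeq promoters were matched for 38 of the 54 genes. GCGTG occurred in 45.1% of their 51 promoters and in 32.4% of all 32851 promoters of 300 bases. CTTTGA occurred in 9.80% against 16.0%, CTTTGT in 19.6% against 18.7%, and TGANTCA in 3.92% against 7.81%. A match describes the letters of the window and is not evidence of binding.

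The comparison of ipsilateral with contralateral ganglia shows which of these genes differed 1 day after the lesion. In both genotypes Apc, Dvl1, Sfrp1 and Wnt9b rose, and Axin2, Dkk3 and Wnt3 fell. In control mice 12 of 47 tested genes were called at an adjusted p under 0.05, 8 higher and 4 lower, and in cKO mice 13 of 47, 6 higher and 7 lower. Pygo1 is counted as lower in both, although it was listed for a difference between the contralateral libraries of the genotypes, and with Pygo1 left out the counts were 11 of 46 (8 higher, 3 lower) and 12 of 46 (6 higher, 6 lower). Both shares were close to the background, since 29.9% of all tested genes were called in control mice (13.8% higher and 16.0% lower) and 31.3% in cKO mice (16.2% higher and 15.1% lower). The 8 genes called in both genotypes (7 without Pygo1) all had the same direction, 4 were called in control mice alone, 5 in cKO mice alone and 30 in neither. The median log2 fold change of the 47 genes was 0.12 in control mice and -0.15 in cKO mice, against -0.0047 and -0.030 over all tested genes. Without the contralateral libraries of H64, H95 and H100, 19 of the 49 genes then tested were called in control mice, all 12 of the above among them, and 10 of 49 in cKO mice, 7 of which were among the 13. In that fit 31.3% and 23.2% of all tested genes were called, and with Pygo1 left out 18 and 9 of 48 Wnt pathway genes. With the 2 sides of each mouse paired by a mouse block, 15 of 47 genes were called in control mice and 18 of 47 in cKO mice, against 30.0% and 31.6% of all tested genes in that fit. With Pygo1 left out these were 14 and 17 of 46. The block kept every call and added Lrp5, Wnt10a and Wnt11 in control mice and Fzd1, Fzd4, Lrp6, Wnt9a and Wnt10a in cKO mice.

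Cell type markers also differed between the sides. Fibroblast markers had a median log2 fold change of 0.34 in control mice, with 0 of 8 called by edgeR (1 at an unadjusted p under 0.05), and of -0.65 in cKO mice, with 1 of 8 called, lower. Their summed level lay between 826 and 1417 CPM contralaterally and between 966 and 1559 CPM ipsilaterally in control mice. In cKO mice it lay between 971 and 2406 CPM contralaterally and between 886 and 1661 CPM ipsilaterally. Sensory neuron markers included 5 of 16 called lower in control mice and 4 of 16 in cKO mice. Their contralateral and ipsilateral sums ranged over 14469 to 16372 and 14277 to 15862 CPM in control mice and over 14203 to 16545 and 13739 to 15008 CPM in cKO mice. Among satellite glia markers 3 of 7 were called higher in control mice and 2 of 7 in cKO mice, with sums over 1342 to 1489.9 and 1562 to 1720.3 CPM and over 1329 to 1544 and 1524 to 1596 CPM. Endothelial markers had 3 of 8 called higher in control mice and, by edgeR, 0 in cKO mice (0 at an unadjusted p under 0.05), with sums over 105 to 148 and 124 to 179 CPM and over 119 to 177 and 139 to 163 CPM. Macrophage markers had 2 of 10 called in control mice, both higher, with 10 of 10 above 0, and by edgeR 0 in cKO mice (0 at an unadjusted p under 0.05), with sums over 83.8 to 147 and 92.8 to 177 CPM and over 84.3 to 207 and 118 to 201 CPM. In the tendon and perineurial list 3 of 7 were called in control mice (1 higher, 2 lower) and 4 of 7 in cKO mice (1 higher, 3 lower). Its sums did not overlap in control mice, at 126 to 172 and 182 to 235 CPM, and overlapped in cKO mice, at 129.9 to 216 and 189 to 261 CPM. By edgeR 1 of 7 mural cell markers was called in cKO mice, higher, and 0 in control mice (1 at an unadjusted p under 0.05). On the other lists 0 were called by edgeR in either genotype (at an unadjusted p under 0.05, 1 muscle and 1 Schwann cell marker in cKO mice). Their medians in control and cKO mice were 0.48 and -3.24 for muscle (0 of 6 above 0 in cKO mice), 0.64 and -0.10 for neutrophils (7 of 7 above 0 in control mice), 0.034 and -0.41 for erythroid cells (0 of 5 above 0 in cKO mice), -0.24 and -0.34 for lymphocytes and 0.034 and 0.0030 for Schwann cells. The higher tendon and perineurial gene in both genotypes was Slc2a1, the glucose transporter, which is not confined to perineurium. Their part in the results for the Wnt pathway was not tested.

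**Figure D3:**
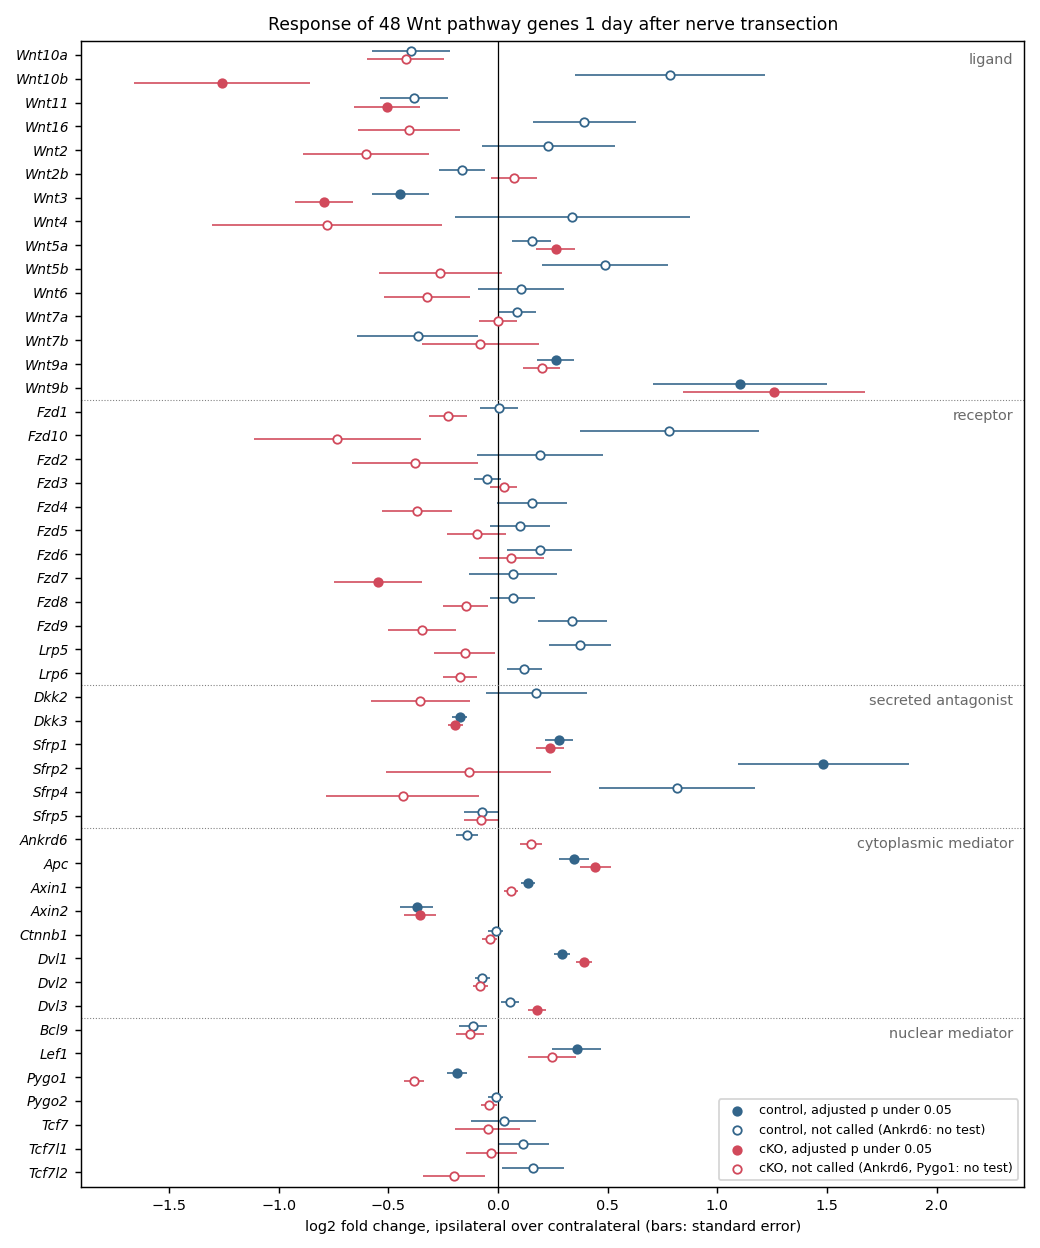
Log2 fold change, ipsilateral over contralateral, of the 48 tested genes by role in control (blue) and cKO mice (red), with standard errors. Filled points have an adjusted p under 0.05, and Ankrd6, and Pygo1 in cKO mice, are shown with no test. Apc, Dvl1 and Sfrp1 lie above 0 and Axin2, Dkk3 and Wnt3 below 0 in both genotypes.

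Values per library are listed below in the order H62, H63, H65, H96 and H97 for control mice and H61, H64, H95, H99 and H100 for cKO mice. Ankrd6, Pygo1, Fzd7, Sfrp2 and Wnt11 are given in every library by rule, and the other genes given in every library were chosen after their values were seen. All fold changes are log2, ipsilateral over contralateral, with the standard error.

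Of the 15 tested ligands, 3 were called in control mice (2 higher, 1 lower) and 5 in cKO mice (2 higher, 3 lower). Wnt3, a ligand of the β-catenin branch, measured 0.761, 0.735, 0.776, 0.689 and 0.935 CPM in contralateral and 0.611, 0.579, 0.597, 0.489 and 0.578 CPM in ipsilateral ganglia of control mice. In cKO mice it measured 0.716, 0.583, 0.622, 0.724 and 0.745 CPM contralaterally and 0.441, 0.398, 0.287, 0.467 and 0.359 CPM ipsilaterally. Every mouse was lower on the lesion side, and the sides did not overlap in either genotype. The fold change was -0.45 ± 0.13 in control mice (adjusted p = 0.0119) and -0.79 ± 0.13 in cKO mice (adjusted p = 8.74e-05). The call in control mice was lost without mouse H97 (-0.36, adjusted p = 0.0778).

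Wnt9b rose in both genotypes from very low levels, by 1.10 ± 0.40 in control mice (adjusted p = 0.0405) and 1.26 ± 0.41 in cKO mice (adjusted p = 0.0242). Its means went from 0.140 ± 0.0800 to 0.305 ± 0.0988 CPM and from 0.109 ± 0.0301 to 0.264 ± 0.119 CPM. It was higher in 5 of 5 control and 4 of 5 cKO mice, and the sides overlapped. In control mice the call was lost when any of H61, H63, H65, H96, H97 or H100 was left out (adjusted p up to 0.102), and in cKO mice without H61, H64, H95 or H100 (up to 0.144). Its fold change in cKO mice without the 3 libraries apart was 0.91 (adjusted p = 0.292).

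Wnt9a, called in control mice, had means of 19.8 ± 3.09 and 23.8 ± 1.37 CPM (0.26 ± 0.085, adjusted p = 0.0235). In cKO mice the values were 20.7 ± 1.82 and 23.7 ± 2.09 CPM (0.20 ± 0.085, adjusted p = 0.0820, or 0.0143 with the mouse block), and all 10 mice were higher on the lesion side. The control call was lost without H63, H65 or H97 (adjusted p = 0.0678, 0.0962 and 0.102). Wnt5a, the main ligand of β-catenin-independent signalling, was called in cKO mice, with means of 28.6 ± 4.79 and 34.3 ± 1.27 CPM (0.26 ± 0.088, adjusted p = 0.0286). Its contralateral values in H64 and H95, 23.1 and 23.9 CPM, were below those of all other libraries. Without the 3 libraries apart, Wnt5a stood at 0.072 (adjusted p = 0.553), and the call was also lost without H64, H95 or H100 (adjusted p = 0.147, 0.0859 and 0.0614).

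Wnt11, a ligand known for planar polarity signalling, measured 3.86, 2.98, 3.09, 3.26 and 3.22 CPM contralaterally and 2.88, 2.25, 2.21, 2.57 and 2.65 CPM ipsilaterally in control mice. In cKO mice the values were 3.42, 4.12, 5.28, 3.40 and 6.34 CPM and 2.95, 3.04, 2.93, 2.79 and 4.20 CPM. All 10 mice were lower on the lesion side, and in control mice the sides did not overlap. The cKO difference was called and the control difference was not (-0.51 ± 0.15, adjusted p = 0.0142, against -0.38 ± 0.15, adjusted p = 0.0666, in control mice). With the mouse block the control difference was called too (adjusted p = 0.00377). Without the 3 libraries apart it was -0.095 (adjusted p = 0.698) in cKO mice, and without H95 -0.41 (adjusted p = 0.0920).

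Wnt10b, another β-catenin branch ligand, measured 0.275, 0.147, 0.189, 0.0830 and 0.137 CPM contralaterally and 0.305, 0.296, 0.334, 0.163 and 0.328 CPM ipsilaterally in control mice. The cKO values were 0.318, 1.27, 0.611, 0.157 and 0.534 CPM and 0.193, 0.254, 0.323, 0.149 and 0.278 CPM. All 5 control mice were higher and all 5 cKO mice lower on the lesion side, and the contralateral value of H64 was the highest of the 20. The difference was called in cKO mice (-1.26 ± 0.40, adjusted p = 0.0201) and not in control mice (0.78 ± 0.43, adjusted p = 0.195). Without mouse H64 it was -0.78 (adjusted p = 0.160), and without the 3 libraries apart 0.017 (adjusted p = 0.984). The other 9 tested ligands were called in neither genotype, with fold changes from -0.40 (Wnt10a) to 0.49 (Wnt5b) in control mice and from -0.78 (Wnt4) to 0.074 (Wnt2b) in cKO mice. Of these, Wnt10a was lower on the lesion side in both genotypes and was called in both with the mouse block (-0.40 ± 0.18, adjusted p = 0.0994, or 0.0452 with the block, and -0.42 ± 0.18, adjusted p = 0.0741, or 0.0310). Without the libraries apart the block no longer called Wnt10a (-0.59, adjusted p = 0.137) or Wnt9a (0.25, adjusted p = 0.101) in cKO mice. Both changes were larger in size than with all libraries in the block (-0.43 and 0.20). Only H61 and H99 then had both sides among cKO mice, so these lost calls do not show that the results rested on the libraries apart.

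No receptor of 12 was called by edgeR in control mice (2 at an unadjusted p under 0.05), and 1, Fzd7, was called lower in cKO mice. Fzd7 measured 19.3, 18.6, 13.4, 15.4 and 14.3 CPM contralaterally and 17.3, 19.8, 13.5, 17.1 and 17.2 CPM ipsilaterally in control mice. In cKO mice it measured 18.2, 32.5, 28.1, 14.5 and 30.5 CPM and 14.3, 19.1, 14.7, 14.3 and 22.3 CPM. The 3 contralateral libraries apart were at 28.1 to 32.5 CPM, whereas those of H61 and H99, at 18.2 and 14.5 CPM, lay within the control range. The fold change was -0.55 ± 0.20 in cKO mice (adjusted p = 0.0457) and 0.067 ± 0.20 in control mice (adjusted p = 0.849). In cKO mice it was 0.059 without the 3 libraries (adjusted p = 0.873), and the call was lost in 12 of the other alternatives, among them leaving out any mouse except H99.

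The co-receptor Lrp5 measured 13.2 ± 1.44 and 17.1 ± 2.20 CPM in control mice, higher on the lesion side in 5 of 5 mice (0.37 ± 0.14, adjusted p = 0.0521), and 18.7 ± 4.62 and 16.8 ± 2.04 CPM in cKO mice (-0.15 ± 0.14, adjusted p = 0.454). Neither was called, except in control mice with the mouse block (adjusted p = 0.0221). Lrp6, its close relative, gave 0.12 ± 0.079 and -0.17 ± 0.079 (adjusted p = 0.292 and 0.106). With the mouse block Lrp6, Fzd1 (-0.23 ± 0.086) and Fzd4 (-0.37 ± 0.16) were called lower in cKO mice (adjusted p = 0.0179, 7.80e-04 and 0.0139). All 3 were among the receptors highest in the libraries apart, and without those libraries the block called none of them (-0.063, adjusted p = 0.549, -0.11, adjusted p = 0.215 and -0.11, adjusted p = 0.549). The fold changes of the 10 Frizzled genes ran from -0.049 (Fzd3) to 0.78 (Fzd10) in control mice and from -0.73 (Fzd10) to 0.060 (Fzd6) in cKO mice. In control mice 11 of the 12 receptors had a fold change above 0, against 14051 of all 28564 tested genes. In cKO mice 2 of 12 did, against 12835 of 28564. Of the 12 receptors, 8 were among the genes highest in the libraries apart. Fibroblast marker medians were 0.34 and -0.65, as given above, and their part in these counts was not tested.

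Of 6 tested secreted antagonists, 3 were called in control mice (2 higher, 1 lower) and 2 in cKO mice (1 higher, 1 lower). Sfrp1, a Wnt-binding relative of the Frizzled proteins, measured 56.7, 54.5, 52.9, 57.2 and 55.4 CPM contralaterally and 65.3, 63.5, 69.4, 69.2 and 67.8 CPM ipsilaterally in control mice, with no overlap. In cKO mice the values were 58.5, 48.3, 65.7, 51.8 and 66.2 CPM and 69.7, 68.7, 66.6, 65.5 and 71.8 CPM, with overlap and all 5 mice higher on the lesion side. The fold changes were 0.28 ± 0.065 (adjusted p = 0.00237) and 0.24 ± 0.065 (adjusted p = 0.00757). Dkk3, a divergent Dickkopf protein abundant in these ganglia, measured 197, 212, 208, 204 and 215 CPM and 185, 183, 182, 179.7 and 187 CPM in control mice. Its cKO values were 218, 224, 212, 229 and 227 CPM contralaterally and 188, 186, 183, 206 and 208 CPM ipsilaterally. All 10 mice were lower on the lesion side, and the sides did not overlap in either genotype (-0.18 ± 0.036, adjusted p = 6.74e-04, and -0.19 ± 0.036, adjusted p = 2.42e-04).

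Sfrp2, from the same family as Sfrp1, showed the largest fold change of the 47 genes in control mice. It measured 0.486, 0.784, 0.318, 0.656 and 0.524 CPM contralaterally and 1.18, 1.85, 1.24, 0.897 and 2.53 CPM ipsilaterally, with no overlap (1.48 ± 0.39, adjusted p = 0.00660). In cKO mice the values were 1.84, 0.951, 1.48, 0.434 and 0.720 CPM and 0.828, 0.737, 0.539, 1.34 and 1.54 CPM, and 2 of 5 mice were higher on the lesion side (-0.13 ± 0.38, adjusted p = 0.835). The control call was kept in all 18 alternatives, with adjusted p from 0.000323 to 0.0465. Sfrp4 had wider spread: 62, 50.4, 42.6, 30.3 and 33.6 CPM and 89.6, 86.9, 71.6, 44.0 and 93.2 CPM in control mice, all 5 higher on the lesion side, and 68.1, 152, 121, 30.4 and 113 CPM and 45.6, 61.9, 67.1, 81.6 and 102 CPM in cKO mice. It was not called (0.82 ± 0.35, adjusted p = 0.0973, and -0.44 ± 0.35, adjusted p = 0.386). Sfrp5 and Dkk2 were not called either, with fold changes between -0.35 and 0.17.

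Of 7 tested cytoplasmic mediators, 4 were called in each genotype, 3 higher and 1 lower in both. Apc, Dvl1 and Axin2 kept their direction and call in both genotypes in every alternative run. Dvl1, a Dishevelled protein that relays the Frizzled signal, measured 69.5, 68.5, 67.9, 75.2 and 69.5 CPM contralaterally and 80.7, 90.7, 87.7, 83.8 and 86.4 CPM ipsilaterally in control mice. In cKO mice it measured 67.9, 66.6, 66.8, 65.4 and 65.7 CPM and 90.2, 88.4, 91.3, 86.0 and 80.1 CPM, and the sides did not overlap in either genotype. It rose by 0.29 ± 0.037 in control mice (adjusted p = 3.11e-06) and 0.39 ± 0.037 in cKO mice (adjusted p = 5.06e-08), the smallest adjusted p among the members in each genotype. Dvl3 was called in cKO mice, from 51.0 ± 3.94 to 57.7 ± 1.08 CPM (0.18 ± 0.042, adjusted p = 0.00226), and not in control mice (0.054 ± 0.042, adjusted p = 0.374). The cKO value without the 3 libraries apart was 0.093 (adjusted p = 0.173). Dvl2 was not called (-0.071 ± 0.034 and -0.080 ± 0.034, lower on the lesion side in all 10 mice).

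Apc, the scaffold whose loss stabilises β-catenin and which also binds microtubules in axons, measured 298, 315, 323, 278 and 335 CPM contralaterally and 409.5, 409.7, 359, 399 and 392 CPM ipsilaterally in control mice. The cKO values were 304, 285, 278, 344 and 255 CPM and 385, 456, 396, 380.3 and 376 CPM. All 10 mice were higher on the lesion side, and neither genotype showed overlap between sides (0.35 ± 0.070, adjusted p = 6.62e-04, and 0.44 ± 0.070, adjusted p = 4.93e-05). Axin2, a scaffold of the same complex and a standard transcriptional target of β-catenin, went the other way: 11.0, 12.4, 10.3, 12.8 and 11.9 CPM contralaterally and 8.91, 8.81, 8.41, 10.4 and 8.58 CPM ipsilaterally in control mice, and 11.1, 9.96, 12.1, 12.1 and 12.2 CPM and 9.89, 9.45, 8.44, 8.25 and 8.87 CPM in cKO mice. It was lower in all 10 mice, with overlap of the sides in control mice from the ipsilateral library of H96 (-0.37 ± 0.074, adjusted p = 5.49e-04, and -0.36 ± 0.074, adjusted p = 8.13e-04). Axin1, its paralog, was called in control mice with a small change, from 21.8 ± 0.849 to 24.0 ± 0.195 CPM with no overlap (0.14 ± 0.033, adjusted p = 0.00266). In cKO mice Axin1 gave 0.060 ± 0.033 (adjusted p = 0.174). Ctnnb1 itself, the most abundant member, was not called, at 426 ± 15.3 and 423 ± 12.8 CPM in control mice (-0.010 ± 0.035, adjusted p = 0.869) and 428 ± 15.8 and 417 ± 18 CPM in cKO mice (-0.039 ± 0.035, adjusted p = 0.440).

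**Figure D4:**
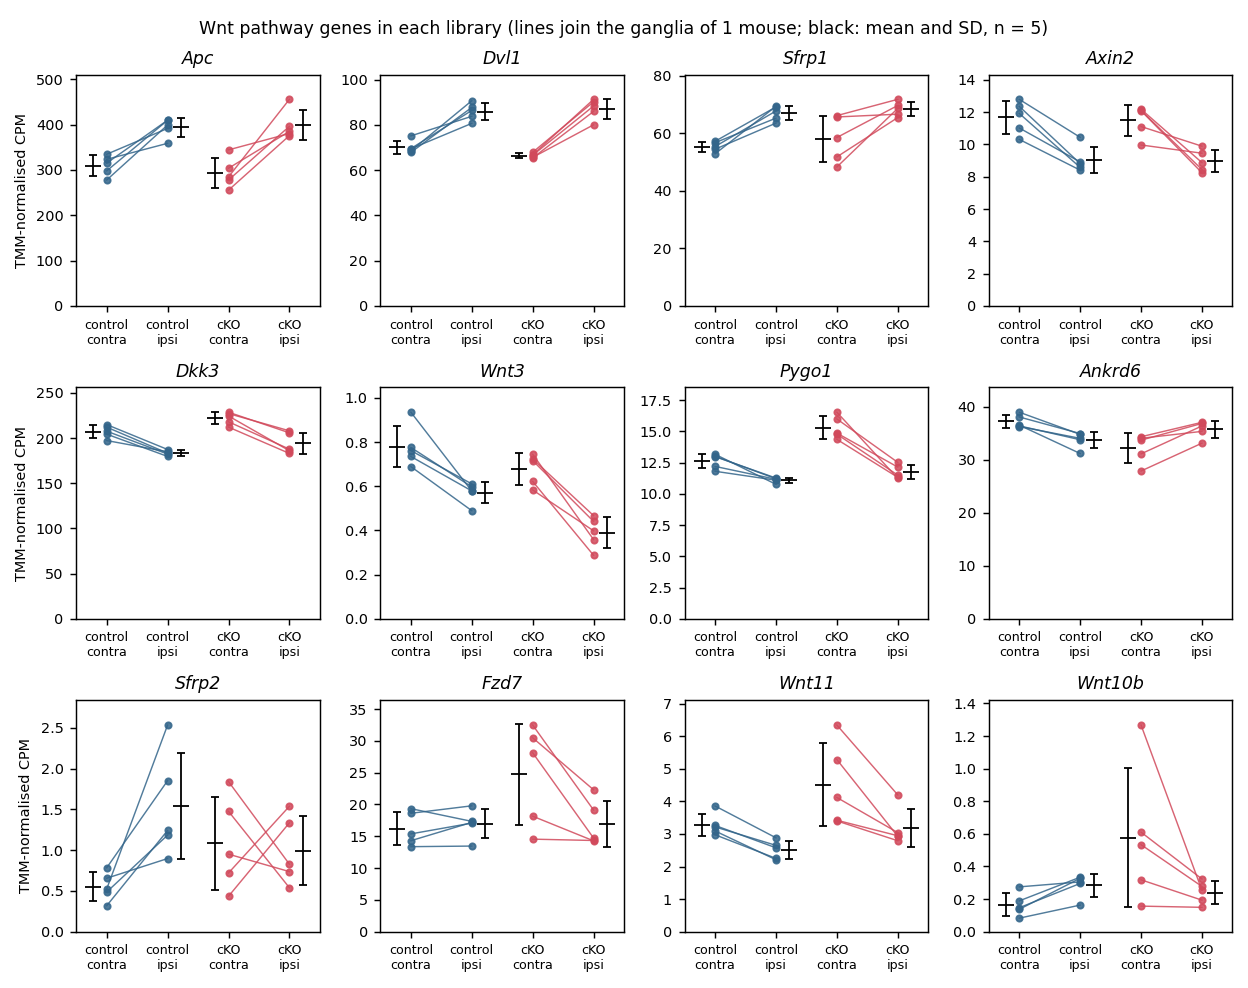
TMM-normalised CPM of 12 Wnt pathway genes in each library, from 0. Lines join the contralateral and ipsilateral ganglia of a mouse (control blue, cKO red), and black bars give the mean and SD of 5 libraries. Dvl1 and Apc are higher and Dkk3, Wnt3 and Pygo1 lower on the lesion side in all 10 mice, and Ankrd6 is lower in 5 control and higher in 5 cKO mice.

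Among nuclear mediators, Pygo1 fell on the lesion side in control mice. This co-activator binds the β-catenin complex through Bcl9 and reads a histone mark. It measured 13.2, 11.8, 13.0, 12.2 and 13.0 CPM contralaterally and 10.8, 11.1, 11.3, 11.2 and 11.2 CPM ipsilaterally in control mice. In cKO mice it measured 14.4, 14.9, 16.5, 14.8 and 16.0 CPM and 11.3, 12.1, 11.2, 11.5 and 12.5 CPM. The sides did not overlap in either genotype. The control fold change was -0.19 ± 0.046 (adjusted p = 0.00339). Its control contralateral libraries were also part of the genotype difference for which Pygo1 was listed, so this test is not independent of the listing. The level of Pygo1 in the cKO contralateral libraries led to that listing. Its cKO fold change of -0.38 ± 0.046 is therefore a description, with no test, and it was -0.30 without the 3 libraries apart. Lef1, a DNA-binding partner of β-catenin, was called in control mice, with 2.55, 3.0, 2.81, 3.42 and 2.97 CPM contralaterally and 3.68, 4.10, 3.47, 4.18 and 3.49 CPM ipsilaterally (0.36 ± 0.11, adjusted p = 0.0169). In cKO mice its means were 2.92 ± 0.548 and 3.46 ± 0.303 CPM, and 3 of 5 mice were higher (0.25 ± 0.11, adjusted p = 0.0976). The control call was lost without H62 (adjusted p = 0.0641) or H63 (adjusted p = 0.0551). Bcl9, Pygo2, Tcf7, Tcf7l1 and Tcf7l2 were called in neither genotype, with fold changes from -0.11 to 0.16 in control mice and from -0.20 to -0.031 in cKO mice.

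Ankrd6 encodes Diversin, an ankyrin repeat protein that recruits casein kinase to the destruction complex and also takes part in planar polarity. It was listed because of its opposite responses, which are described here with no test. In control mice it measured 39.0, 36.3, 38.1, 36.5 and 36.4 CPM contralaterally and 34.8, 34.0, 34.9, 31.2 and 33.8 CPM ipsilaterally. The cKO values were 34.0, 27.9, 31.1, 34.3 and 33.7 CPM contralaterally and 35.3, 33.1, 36.4, 37.0 and 36.8 CPM ipsilaterally. All 5 control mice were lower and all 5 cKO mice higher on the lesion side, by log2 ratios of -0.16, -0.092, -0.12, -0.23 and -0.11 in control mice and 0.054, 0.25, 0.23, 0.11 and 0.13 in cKO mice. The fitted difference between the responses was 0.29 ± 0.071, and 0.20 without the 3 contralateral libraries of cKO mice that stood apart, which held the 3 lowest contralateral values. Contralateral values of the genotypes did not overlap, at 37.2 ± 1.21 CPM in control and 32.2 ± 2.74 CPM in cKO mice, while ipsilateral values did.

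The comparison of genotypes asks how ganglia of cKO mice differed from those of control mice on each side. In contralateral ganglia Pygo1, described with no test, was at 12.6 ± 0.595 CPM in control and 15.3 ± 0.915 CPM in cKO mice. Its lowest cKO library, at 14.4 CPM, lay above the highest control library, at 13.2 CPM. The fitted log2 difference was 0.28 ± 0.046, and 0.21 without the 3 libraries apart, which held the 3 highest values. Of the other 47 genes, 0 were called by edgeR, against 0.0735% of all tested genes, while 22 had an unadjusted p under 0.05, against 17.5% of all tested genes. Ankrd6 is counted among these 22, although the pattern for which it was listed rests on the same contralateral libraries, and with Ankrd6 also left out the count was 21 of 46. DESeq2 called 7, 6 higher and 1 lower in cKO mice, and 6, all higher, with Ankrd6 also left out, against 5.04% of all genes to which it gave an adjusted p.

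The 5 largest log2 differences were those of Wnt10b (1.79), Fzd10 (1.47), Wnt4 (1.25), Sfrp4 (1.15) and Wnt2 (1.03). Without the 3 libraries apart they were 0.52, 0.14, -0.30, 0.17 and 0.53. Of these, Wnt10b, Fzd10 and Sfrp4 were among the 16 genes highest in H64, H95 and H100. Receptors had a median of 0.37, with 11 of 12 above 0, 0 called by edgeR and 8 at an unadjusted p under 0.05. Over all 28564 tested genes 13081 were above 0 and 17.5% had an unadjusted p under 0.05. Of the 12 receptors, 8 were among the 16 genes highest in H64, H95 and H100. Fzd2, a Frizzled receptor, measured 18.2, 14.3, 10.2, 11.6 and 11.3 CPM in control and 11.4, 32.8, 25.4, 11.5 and 31.7 CPM in cKO mice (log2 difference 0.78 ± 0.29, adjusted p = 0.178). Lrp6 measured 73.2, 66.6, 63, 58.0 and 68.3 CPM in control and 74.9, 90.2, 91.5, 68.1 and 84.8 CPM in cKO mice (0.32 ± 0.079, adjusted p = 0.103). For both genes the libraries of H61 and H99 lay within or close to the control range and the other 3 above it. The same held for Wnt16, at 2.72, 2.78, 2.26, 2.17 and 2.46 CPM and 2.58, 3.55, 5.82, 2.32 and 7.30 CPM (0.80 ± 0.23, adjusted p = 0.116). The differences of Fzd2, Lrp6 and Wnt16 without the 3 libraries were -0.20, 0.12 and -0.013. The smallest adjusted p of the 47 was that of Wnt10b (1.79 ± 0.42, adjusted p = 0.0892).

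Fibroblast markers differed in the same libraries: 8 of 8 had a log2 difference above 0, with a median of 0.89, 0 called by edgeR and 7 at an unadjusted p under 0.05, and sums of 826 to 1417 CPM in control and 971 to 2406 CPM in cKO mice. No marker on any other cell type list was called by edgeR in this comparison, and the lists differed in sign: 7 of 7 neutrophil markers were above 0 (median 0.79), 5 of 5 erythroid (0.47), 10 of 10 macrophage (0.28), 8 of 8 endothelial (0.14) and 6 of 6 muscle markers (1.34), against 1 of 8 lymphocyte markers (-0.48), 3 of 7 satellite glia (-0.0051), 4 of 9 Schwann cell (-0.060), 5 of 16 sensory neuron (-0.021), 5 of 7 mural cell (0.21) and 4 of 7 tendon and perineurial markers (0.097). At an unadjusted p under 0.05 there were 4 sensory neuron, 2 mural cell and 2 tendon and perineurial markers, 1 each of endothelium, satellite glia and Schwann cells, and 0 on the other lists. Summed levels in control and cKO mice were 34.3 to 103 and 18.8 to 160.2 CPM for neutrophils, 311 to 711 and 272 to 833 CPM for erythroid cells, 83.8 to 147 and 84.3 to 207 CPM for macrophages, 105 to 148 and 119 to 177 CPM for endothelium and 9.18 to 369.6 and 5.50 to 1691 CPM for muscle. H64 had the highest contralateral sums of the neutrophil, erythroid, macrophage, endothelial and tendon and perineurial lists, and H100 that of muscle. Without the 3 libraries, 0 of the 49 Wnt pathway genes then tested were called by edgeR, against 0.00668% of all tested genes, and 6 had an unadjusted p under 0.05 (5 of 48 with Ankrd6 also left out), against 3.76% of all tested genes. With mouse H99 left out 18 genes were called (16 higher and 2 lower, or 16 and 1 with Ankrd6 also left out), and with H61 left out 2 were, against 11.5% and 0.605% of all tested genes in the same fits. These are the 2 cKO mice whose contralateral marker sums, 971 and 1068 CPM, lay in the range of the control mice. Their part in the result was not tested.

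In ipsilateral ganglia 0 of 48 genes were called between genotypes, against 0.00700% of all tested genes, and 3 had an unadjusted p under 0.05, against 2.36%. DESeq2 also called 0. These 3 were Wnt3, Wnt11 and Dkk3, all named after their values were seen. Wnt3 measured 0.489 to 0.611 CPM in control and 0.287 to 0.467 CPM in cKO mice, with no overlap (-0.55 ± 0.13, unadjusted p = 5.70e-04, adjusted p = 0.99996). Wnt11 was at 2.51 ± 0.283 and 3.18 ± 0.576 CPM (0.34 ± 0.15, unadjusted p = 0.0401) and Dkk3 at 184 ± 2.86 and 194 ± 11.8 CPM (0.081 ± 0.036, unadjusted p = 0.0343). Pygo1 was at 11.1 ± 0.198 and 11.7 ± 0.560 CPM on this side (0.081 ± 0.046, unadjusted p = 0.0893).

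Whether the response to the lesion differed between genotypes was tested as the interaction. Of 47 genes 0 were called by edgeR, against 0.00% of all tested genes, and 12 had an unadjusted p under 0.05, against 9.80%. Pygo1 is counted among these 12, although it was listed for a difference in the same contralateral libraries, and with Pygo1 also left out the count was 11 of 46. DESeq2 also called 0. For Axin1, Lef1, Sfrp2, Wnt9a, Dvl3, Fzd7, Wnt5a, Wnt10b and Wnt11, which were called in 1 genotype alone without the block, the responses were not shown to differ. The largest interaction values were those of Wnt10b (-2.04 ± 0.59, adjusted p = 0.485), Sfrp2 (-1.62 ± 0.54, adjusted p = 0.485) and Fzd10 (-1.51 ± 0.56, adjusted p = 0.485), cKO response minus control response. They were -0.78, -1.69 and -0.18 without the 3 libraries apart. Of the genes called in both genotypes, Axin2, Dkk3 and Sfrp1 had the smallest interaction values, 0.016 ± 0.10, -0.019 ± 0.051 and -0.040 ± 0.091. Without the 3 libraries apart, 3 of 49 genes had an unadjusted p under 0.05 (3 of 48 with Pygo1 also left out), against 3.24% of all tested genes, and 0 were called by edgeR. These comparisons share the libraries of the comparisons above.

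Other genes of the pathway were counted from 7 lists chosen for function. Genes of these lists with a log2 fold change under 0.5 were named after their values were seen. Of 65 tested genes on these lists, 23 were called in control mice (12 higher, 11 lower) and 25 in cKO mice (16 higher, 9 lower), beside the 29.9% and 31.3% of all tested genes. In the destruction complex list 5 of 11 were called in control mice (3 higher, 2 lower) and 7 of 11 in cKO mice (6 higher, 1 lower). None of the 11 reached a log2 fold change of 0.5 in size. Csnk1e and Csnk1d, casein kinases that phosphorylate pathway components, and Gsk3b, the kinase that marks β-catenin, rose in both genotypes. Csnk1e rose by 0.35 ± 0.037 (adjusted p = 3.00e-07) and 0.47 ± 0.037 (adjusted p = 3.33e-09), Csnk1d by 0.26 ± 0.032 and 0.29 ± 0.032, and Gsk3b by 0.21 ± 0.057 and 0.32 ± 0.057.

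Nuclear cofactors had 5 of 11 called in control mice (2 higher, 3 lower) and 4 in cKO mice (2 higher, 2 lower). Tle3, a Groucho co-repressor that binds TCF proteins, went from 47.6 ± 1.78 to 79.0 ± 4.47 CPM in control mice and from 47.2 ± 2.71 to 78.6 ± 4.65 CPM in cKO mice (0.73 ± 0.047, adjusted p = 1.50e-10, and 0.73 ± 0.047, adjusted p = 1.15e-10). Among textbook target genes of β-catenin, 7 of 12 were tested, and 4 were called in each genotype (3 higher, 1 lower in both). The 3 higher genes were the same in both: Myc, a growth-promoting transcription factor, by 0.77 ± 0.068 and 0.90 ± 0.069, Fosl1, a subunit of AP-1, by 1.09 ± 0.13 and 1.06 ± 0.14, and Cd44, the hyaluronan receptor, by 0.72 ± 0.046 and 0.93 ± 0.046. All 3 also respond to many other signals. The lower gene in control mice was Nkd2, a Dishevelled-binding inhibitor (-0.40 ± 0.094). Tnfrsf19 was called lower in cKO mice (-0.50 ± 0.11, adjusted p = 0.00173, or -0.42, adjusted p = 0.0475, without the libraries apart) and not in control mice (0.23 ± 0.11, adjusted p = 0.137). The member Axin2, also a target, fell in both genotypes, as given above.

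In the list of β-catenin-independent receptors and planar polarity genes, 6 of 14 were called in control mice (3 higher, 3 lower) and 4 in cKO mice (2 higher, 2 lower), none by 0.5 or more in size. Celsr1, a cadherin of planar polarity, rose in both genotypes (0.34 ± 0.092 and 0.33 ± 0.093) and Prickle2 fell in both (-0.24 ± 0.047 and -0.21 ± 0.047). The R-spondin axis, whose members control receptor levels at the cell surface in both directions, had 1 of 9 called in each genotype. These were Znrf3 in control mice (0.30 ± 0.10, adjusted p = 0.0281) and the R-spondin receptor Lgr6 in cKO mice (-0.54 ± 0.19, adjusted p = 0.0363). Without the libraries apart Lgr6 was at -0.18 (adjusted p = 0.586). Of the Wnt secretion genes, 0 of 3 were called by edgeR in control mice (1 at an unadjusted p under 0.05) and 2 in cKO mice, Porcn, which attaches the lipid (0.25 ± 0.039), and Wls, the Wnt carrier (-0.32 ± 0.10). Without the libraries apart Porcn was at 0.16 (adjusted p = 0.0102) and Wls at -0.039 (adjusted p = 0.785). Other antagonists had 2 of 10 called in control mice, both lower (Frzb, -0.33 ± 0.083, and Ctnnbip1, -0.15 ± 0.029), and 3 in cKO mice, Dkkl1 (0.40 ± 0.13) and Draxin (0.46 ± 0.14, or 0.44, adjusted p = 0.0920, without the libraries apart) higher and Ctnnbip1 (-0.11 ± 0.029) lower. Between genotypes, 0 of the 65 were called on either side and 0 in the interaction by edgeR, with 24, 1 and 18 at an unadjusted p under 0.05 in the contralateral, ipsilateral and interaction comparisons, beside 17.5%, 2.36% and 9.80% of all tested genes. Without the libraries apart these counts were 1, 2 and 2 of 66, beside 3.76%, 3.14% and 3.24% of all genes then tested, and 0 were called by edgeR.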

How the data were processed

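RNA of 20 ganglion samples was read by sequencing, and the authors deposited whole-number counts per gene without normalization, which were used here. The FPKM values the authors deposited were not used. HISAT2, Picard and the builds mm10 and mm39 are named in the submitters' processing notes without roles, and the counting program and strand setting are not given in the sources used here. One label field names a spinal cord injury, and the protocol's sciatic nerve transection was followed. For 1 mouse the title holds a shortened number, and the library name (H61) was used.

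Counts were tested with edgeR 4.0.16 (R 4.3.3, limma 3.58.1): TMM scaling, filterByExpr with a minimum count of 10 and a minimum total of 15, and the robust quasi-likelihood test. All 20 libraries were fitted with 1 mean per group and compared in 5 contrasts. P-values were adjusted by Benjamini-Hochberg over 28564 genes and called under 0.05, and standard errors are the log2 fold change divided by the square root of F. The fit was tested on simulated data first. DESeq2 1.42.0, RLE size factors, no filter, a mean of at least 1 CPM, the mouse number range as a covariate, a mouse block, fits of the compared libraries alone and leaving out each mouse were run as alternatives. Libraries held 76.2 to 118.5 M counts, and all 40 pairs of replicates differed beyond sampling noise (chi-square of 5.11 to 55.3 per degree of freedom).

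Contralateral and ipsilateral ganglia with the same mouse number come from the same animal. The deviations of these pairs from their group means correlated with a median r of 0.186 (-0.0546 to 0.361) over 10 mice. The Wnt pathway genes and all gene lists were chosen with earlier results of these data known. Values in every library are given for Pygo1, Ankrd6 and members called in an injury comparison with a log2 fold change of at least 0.5 in size and a group mean of 1 CPM or more. Genes of the other lists were named by the same size and level, up to 4 per list. Levels per length use merged exons of GENCODE M21. Promoters are RefSeq's for GRCm38.p6.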

Additional observations from a re-analysis of the deposited data

Results flagged for a closer look

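Among 192 groups of 5 libraries (48 genes in 4 groups), 14 held a library whose gap to its nearest neighbour, as a share of the group's range, passed Dixon's 95% value. Chance gives about 1 in 20, or 9.6. In control ipsilateral ganglia H96 was high for Fzd8 (0.8053) and Axin2 (0.7497) and low for Wnt10b (0.7752) and Wnt3 (0.7328). In control contralateral ganglia H62 was high for Wnt9a (0.9025) and Wnt4 (0.8239) and low for Pygo2 (0.7186), and H96 was high for Dvl1 (0.7697). In cKO ipsilateral ganglia H100 was high for Wnt11 (0.823), Fzd1 (0.76) and Ctnnb1 (0.7307), H64 was high for Apc (0.7435) and H61 was low for Dvl3 (0.7834). In cKO contralateral ganglia H99 was high for Bcl9 (0.8516).

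For 2 of the 48 genes every control mouse moved one way on the lesion side and every cKO mouse the other way. This was counted for the Wnt pathway genes only. The share of all tested genes with such a pattern is not known, so the count does not mark these genes out. The mean log2 ratio of ipsilateral to contralateral ganglia, cKO minus control, was 0.2967 for Ankrd6, for which no test is given since the gene was listed for this pattern. It was -1.8364 for Wnt10b, whose interaction was not called by edgeR (adjusted p = 0.485).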

How the results depend on the processing

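The injury comparisons held 25 calls of Wnt pathway genes. That of Pygo1 in cKO mice is counted among these and among the 15 kept below, although it was given above as a description with no test. Of the 25, 15 kept their direction and their side of the threshold in every alternative run, and 2 turned direction in any. Both turned without the contralateral libraries of H64, H95 and H100, an alternative chosen after seeing the data: in cKO mice Fzd7 went to 0.059 and Wnt10b to 0.017. In that alternative 19 genes were called for injury in control mice, against 31.3% of all tested genes. Leaving out 1 mouse gave 9 to 14 calls in control mice, 10 to 16 in cKO mice, and 0 to 18 for genotype in contralateral ganglia, where DESeq2 called 7. Shares of all tested genes called in these fits ran from 23.7 to 30.9%, from 24.9 to 31.5% and from 0.0139 to 11.5%, with 5.04% for DESeq2. The 18 and the 7 include Ankrd6, and were 17 and 6 with Ankrd6 left out. In cKO mice the fit of the compared libraries alone lost Fzd7, Wnt10b, Wnt11 and Wnt5a (adjusted p = 0.144, 0.0747, 0.0735 and 0.0614), no filter lost Fzd7 (0.116), and the covariate lost Fzd7 (0.0541). No filter also lost Wnt3 in control mice (0.0502). The causes were not tested. The mouse as a block, with the pairing of sides, gave 15, 18 and 0 calls for injury in control mice, injury in cKO mice and the interaction. Over all tested genes the shares were 30%, 31.6% and 0%. The block lost none of the calls and added 8, of Lrp5, Wnt10a and Wnt11 in control mice and of Fzd1, Fzd4, Lrp6, Wnt9a and Wnt10a in cKO mice. It was not run for the genotype comparisons, nor the fit of compared libraries alone for the interaction, where neither can be set up. The part of depth in the results of genes under 1 CPM, among them Wnt9b, Wnt10b and Wnt3, was not tested.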
